A study of Mus musculus with 6 samples.

Results

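Collagen chain genes were followed on 6 Illumina MouseRef-8 beadchips, expression arrays that read each transcript by the fluorescence of labelled cRNA on beads. A probe belonged to the set when its annotated gene symbol was Col, a number, a and a number, such as *Col1a1*. The rule took 59 of 25697 probes and 37 of 16593 named genes. RNA came from calvaria (skull bone) cells of C57BL/6 mice, and 3 arrays are labelled *Mmp13* knockout and 3 wildtype. The study's methods describe the same arrays otherwise. There the cells of both groups carry the GFP:*Osx1-Cre* transgene, which drives GFP and Cre recombinase from the promoter of *Sp7* (also called Osterix or Osx1) in cells of the osteoblast lineage, and were sorted for GFP. One group is then ERα f/f, with the estrogen receptor gene *Esr1* deleted by Cre, and the other is the GFP:*Osx1-Cre* control. The number of mice behind each array and their age are not given in the sources used here, although calvaria cells cultured elsewhere in the study came from neonatal pups.

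The level of *Mmp13* went against the labels. The brightest probe of *Mmp13*, which encodes a collagenase of bone and cartilage, read 12.41, 12.91 and 12.79 on the arrays labelled knockout and 8.91, 9.42 and 9.73 on the arrays labelled wildtype, in normalised log2 intensity. The groups did not overlap, and the gene said to be deleted was higher, not lower (log2 fold change 3.35, adjusted p = 0.00048 from limma). All 3 of its probes were called higher. Whether they lie in the deleted part is not given, and a probe outside it would check nothing. *Esr1* was measured by 2 probes, neither of them detected on any array, so its deletion could not be read here. Groups are therefore called labelled knockout and labelled wildtype throughout, and every direction below is that of the labels. The scanner headings of 2 labelled knockout arrays are identical, and these are called shared-heading arrays A and B, in the order of their columns. *Sp7* itself was detected on all 6 arrays. Wildtype replicate 2 stood apart: it lay more than 2 log2 from the other wildtype arrays at 150 tested probes, against 79 for wildtype replicate 3, 6 for wildtype replicate 1 and 0 for each labelled knockout array.

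Collagens are secreted proteins wound from alpha chains, each chain made by its own gene. The fibrillar types I, II, III, V and XI form the banded fibrils of bone, cartilage and skin, and type IV builds the sheets of basement membranes. FACIT collagens, named for their interrupted helices, sit on fibril surfaces, and the remaining types form beaded filaments, anchoring fibrils, hexagonal networks or membrane-spanning proteins. Osteoblasts are known above all for type I collagen, the main protein of bone matrix.

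A probe counted as detected on an array at a detection p under 0.01, and it was tested when this held on at least 3 of the 6 arrays. Of the 59 collagen probes 26 were tested, for 20 genes, 31 were detected on no array and 2 were detected on too few arrays. The difference between groups was estimated with limma. P-values were adjusted after Benjamini and Hochberg across the 11089 tested probes, and 0.05 was the threshold. 5 collagen probes (19.2% of the 26) were higher on the labelled knockout arrays, in a table where 8.86% of all tested probes were higher. A single collagen probe (3.85%) was lower, where 9.22% of all tested probes were lower. The 2 groups of arrays did not overlap at 13 of the 26 probes, and at 42.4% of all tested probes. The median log2 fold change was 0.04 over the 26 collagen probes and -0.02 over all tested probes. Passing the filter could itself depend on the group in which a gene was high, as it did for 2 of the probes called higher. In these RNA pools fewer cells of a type and less RNA per cell cannot be told apart.

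**Figure D1:**
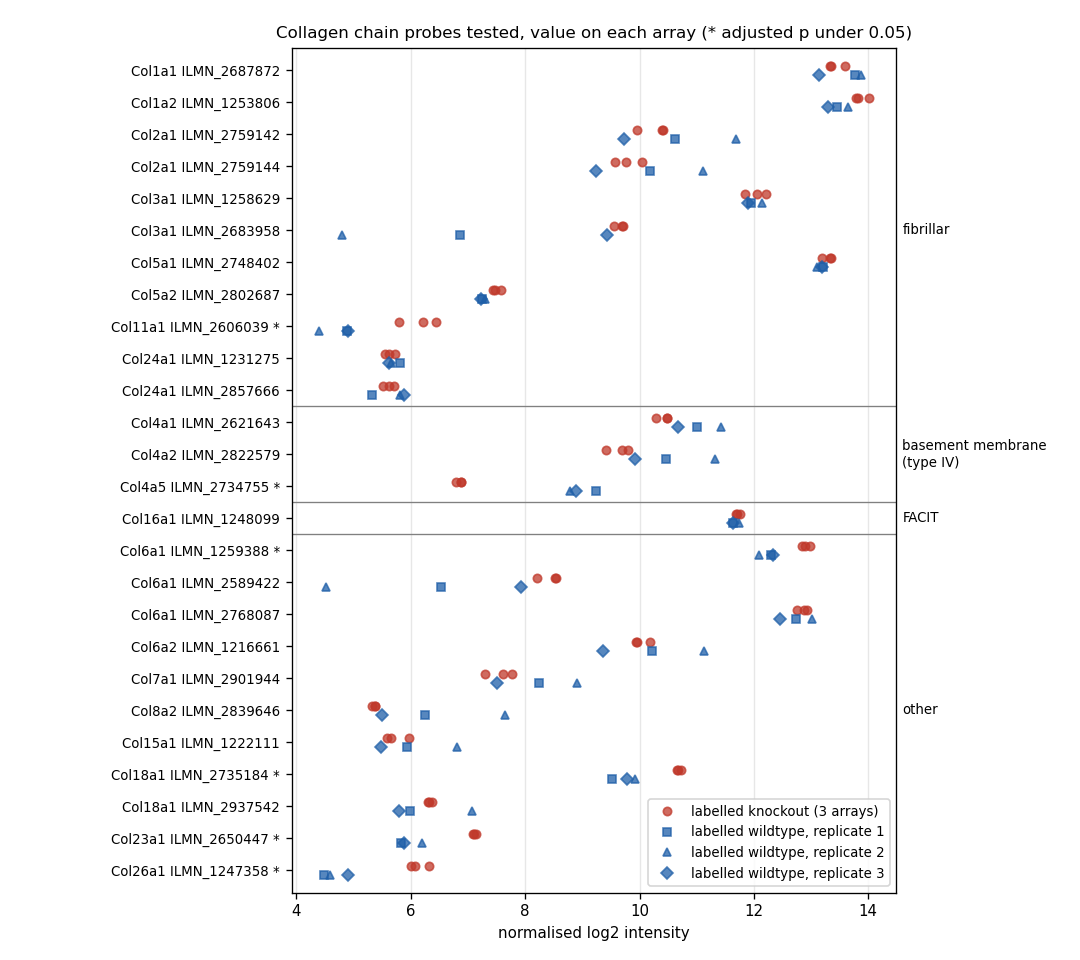
Normalised log2 intensity (horizontal axis) of the 26 collagen chain probes tested, in rows by class, with 1 point for each array: circles for the 3 labelled knockout arrays, and a square, a triangle and a diamond for wildtype replicates 1, 2 and 3. Asterisks mark the 6 probes past the threshold, at which the groups do not overlap, and at 9 probes wildtype replicate 2 lies well to the right of the other wildtype arrays.

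Among the fibrillar collagens, which 17 probes of 11 genes measured, the abundant chains of bone matrix did not pass the test and *Col11a1* was higher on the labelled knockout arrays. *Col1a1* and *Col1a2* encode the chains of type I collagen. *Col1a1* read 13.33, 13.35 and 13.58 on the labelled knockout arrays and 13.77, 13.87 and 13.13 on the labelled wildtype arrays. The groups overlapped, and the log2 fold change was -0.17 (standard error 0.21, adjusted p = 0.59). *Col1a2* read 13.83, 13.79 and 14.01 against 13.45, 13.65 and 13.29. Here every labelled knockout array lay above every wildtype array, but the log2 fold change of 0.41 did not pass the threshold (standard error 0.13, adjusted p = 0.078). It passed in 6 of 18 alternative settings. Among these were leaving out wildtype replicate 2 (log2 fold change 0.53, adjusted p = 0.025) and the authors' normalised table (0.42, adjusted p = 0.045). Under median scaling it was 0.20 (adjusted p = 0.66).

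The gap between *Col1a2* and *Col1a1* within an array was taken as a value of its own. It was 0.50, 0.44 and 0.43 log2 on the labelled knockout arrays and -0.32, -0.22 and 0.16 on the wildtype arrays. The size of such a gap depends on the probes, so only its change between the groups was read, which was 0.58 log2 with no overlap. With 3 arrays a group an exact two-sided permutation test cannot go below 0.1, the value found here (0.2 after Benjamini-Hochberg adjustment over 8 such pairs, which were chosen after their values were seen).

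*Col3a1*, the chain of type III collagen of soft connective tissue, and *Col5a1* and *Col5a2*, whose type V chains start new fibrils, did not pass either. The brighter *Col3a1* probe (ILMN_1258629) read 12.06, 11.84 and 12.20 against 11.95, 12.14 and 11.90, which overlap (log2 fold change 0.04, standard error 0.13). *Col5a1* read 13.34, 13.19 and 13.33 against 13.21, 13.11 and 13.19, and differed by 0.12 log2 (standard error 0.10, adjusted p = 0.43). *Col5a2* read 7.44, 7.47 and 7.57 against 7.25, 7.30 and 7.22. Its groups did not overlap, yet the log2 fold change of 0.24 stayed short of the threshold (standard error 0.10, adjusted p = 0.14). The type V probes were steady, with standard deviations of 0.04 to 0.09 within groups. *Col5a3* was detected on 1 array of each group and was not tested.

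*Col2a1* encodes type II collagen, the fibril of cartilage, and both of its probes were detected on every array. Its brighter probe (ILMN_2759142) read 10.40, 9.96 and 10.42 on the labelled knockout arrays and 10.62, 11.69 and 9.73 on the wildtype arrays. The labelled knockout values fell inside the wildtype range, which was wide, and the log2 fold change was -0.42 (standard error 0.46, adjusted p = 0.54). The dimmer probe (ILMN_2759144) moved with it from array to array, with a log2 fold change of -0.39 (standard error 0.44), and without wildtype replicate 2 both turned to 0.08. Several collagens that accompany type II in cartilage were at background: the single probe of *Col11a2*, the 5 probes of *Col9a1*, *Col9a2* and *Col9a3*, and the probe of *Col10a1*, the chain of hypertrophic cartilage, were detected on no array. Of 8 other chondrocyte markers measured, 5 (*Chad*, *Cytl1*, *Hapln1*, *Matn1* and *Matn3*) were detected on no array, *Acan* was detected on too few arrays to be tested, and *Sox9* and *Comp* were tested and did not pass.

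*Col11a1* encodes a chain of type XI collagen, which lies inside thin cartilage fibrils and is also made by bone cells. Its tested probe (ILMN_2606039, chromosome 3) read 6.44, 6.21 and 5.79 on the labelled knockout arrays, where it was detected on all 3. On the wildtype arrays it read 4.88, 4.40 and 4.90 and was detected on none, so its fold is a lower bound. The bound sets the labelled knockout mean against the dimmest detected level of each wildtype array, and *Col11a1* was at least 1.62-fold higher (adjusted p = 0.0068 from limma). That p-value draws on wildtype arrays without detection, and the probe passed the filter through the labelled knockout arrays alone. The scanner signals behind these values were low, 123, 149 and 123 against 96, 78 and 108 before normalisation. Its other 2 probes were detected on no array, although the lowest detection p of ILMN_2776931 (0.01003) lay just outside the cutoff. It read closer to the cutoff on the labelled knockout arrays than on the wildtype arrays, so its passing a looser filter would depend on the group, and it is not read here. *Col24a1*, a minor fibrillar chain known from developing bone, was tested with 2 probes that had log2 fold changes of -0.06 and -0.05, and the probe of *Col27a1* was detected on no array.

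**Figure D2:**
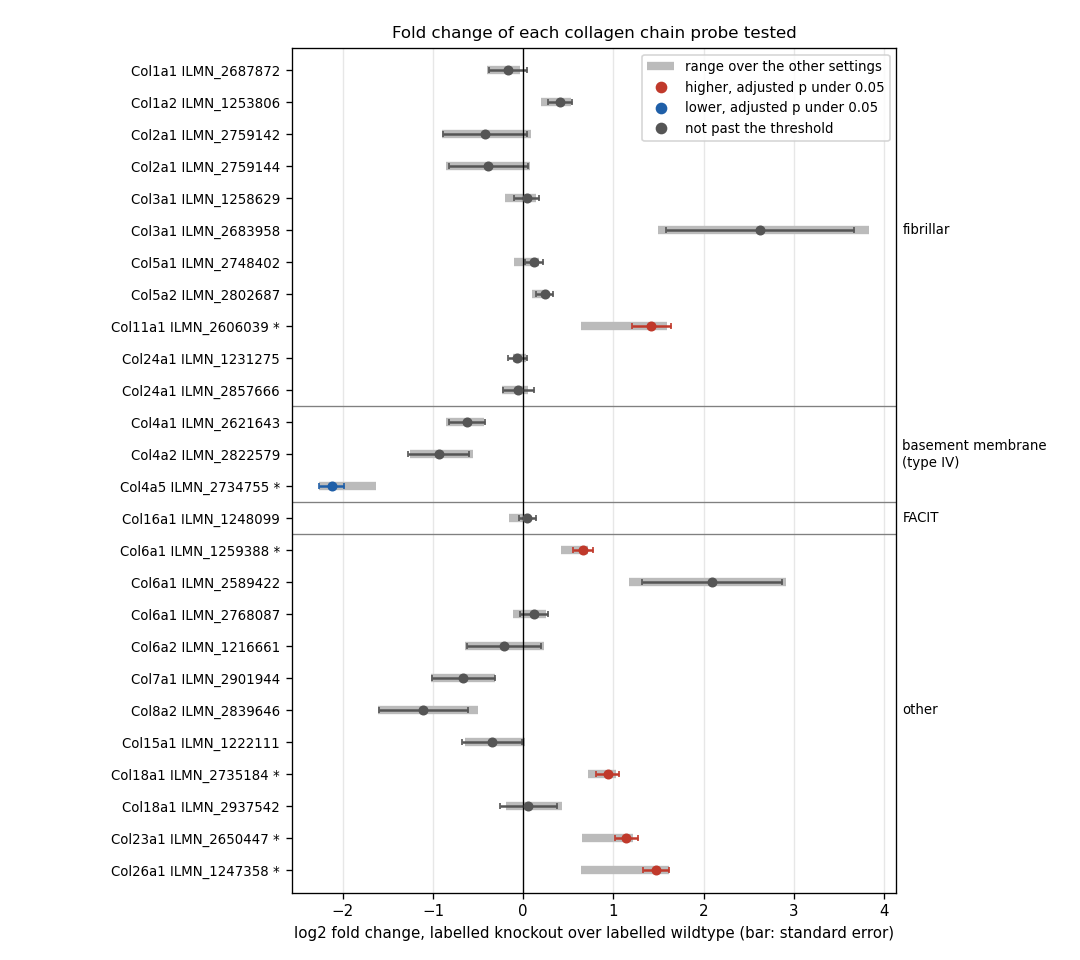
Log2 fold change of each tested collagen probe, labelled knockout over labelled wildtype (horizontal axis), with the standard error as a bar and a grey band for the range over the other processing settings. *Col4a5* lies at -2.12 and is the only probe called lower. The widest bars belong to the probes ILMN_2683958 of *Col3a1* and ILMN_2589422 of *Col6a1*, which were not called, and for *Col11a1* and *Col26a1*, undetected on the wildtype arrays, the point is the fitted value and no bound.

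Of the 3 type IV probes tested, that of *Col4a5* was lower on the labelled knockout arrays and the other probes did not pass. *Col4a5* encodes a type IV chain that is restricted to some basement membranes, whereas *Col4a1* and *Col4a2* encode the chains found in nearly all of them. The *Col4a5* probe (ILMN_2734755, chromosome X) read 6.79, 6.88 and 6.88 on the labelled knockout arrays and 9.24, 8.79 and 8.90 on the wildtype arrays. Both groups were tight and lay far apart, 6.85 ± 0.05 (SD, n = 3 arrays) against 8.97 ± 0.23 (SD, n = 3). The log2 fold change was -2.12 (standard error 0.14, adjusted p = 0.00046 from limma), so the level was 4.36-fold higher on the wildtype arrays. Among the 4 called collagen probes that were detected in both groups it was the largest change in size, and it passed under every setting tried, with log2 fold changes from -2.26 to -1.63.

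*Col4a1* read 10.47, 10.29 and 10.47 on the labelled knockout arrays against 11.01, 11.42 and 10.68 on the wildtype arrays. *Col4a2* read 9.80, 9.42 and 9.69 against 10.47, 11.32 and 9.93. For both genes the groups did not overlap, wildtype replicate 2 was the highest array and wildtype replicate 3 the nearest to the labelled knockout arrays. The log2 fold changes were -0.62 for *Col4a1* (standard error 0.20, adjusted p = 0.073) and -0.94 for *Col4a2* (standard error 0.34, adjusted p = 0.11), short of the threshold. Both passed without wildtype replicate 3, at -0.80 (adjusted p = 0.015) and -1.26 (adjusted p = 0.019), and were -0.43 and -0.56 without wildtype replicate 2. The gap between *Col4a5* and *Col4a1* within an array changed by -1.50 log2 between the groups without overlap (exact two-sided permutation p = 0.1, 0.2 after adjustment over the 8 pairs). *Col4a3*, *Col4a4* and *Col4a6*, the other type IV chains, were measured by 6 probes and detected on no array.

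The type IV genes lie in head-to-head pairs, and the promoters of the 3 detected chains are shown because *Col4a1* and *Col4a2* took the same order over the wildtype arrays while *Col4a5* did not. Each is the RefSeq window of build GRCm38.p6 from 250 bases before to 50 bases after the start of the gene, written on the strand of the gene. Capitals mark 2 textbook promoter motifs on either strand, the CCAAT box (CCAAT or its reverse ATTGG) and the GC box (GGGCGG or its reverse CCGCCC).
*Col4a1*, chr8:11312777-11313076, minus strand: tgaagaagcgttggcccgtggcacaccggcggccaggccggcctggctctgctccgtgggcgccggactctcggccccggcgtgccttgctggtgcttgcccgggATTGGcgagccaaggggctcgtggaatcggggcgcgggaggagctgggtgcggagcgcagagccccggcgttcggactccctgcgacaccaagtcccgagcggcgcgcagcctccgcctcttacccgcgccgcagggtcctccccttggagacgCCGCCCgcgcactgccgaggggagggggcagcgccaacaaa
*Col4a2*, chr8:11312555-11312854, plus strand: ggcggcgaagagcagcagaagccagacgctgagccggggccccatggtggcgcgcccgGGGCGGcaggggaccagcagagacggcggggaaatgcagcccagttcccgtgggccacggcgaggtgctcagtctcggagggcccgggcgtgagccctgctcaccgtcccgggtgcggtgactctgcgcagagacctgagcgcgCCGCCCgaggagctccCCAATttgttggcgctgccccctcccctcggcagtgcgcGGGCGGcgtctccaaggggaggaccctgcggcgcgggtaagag
*Col4a5*, chrX:141475169-141475468, plus strand: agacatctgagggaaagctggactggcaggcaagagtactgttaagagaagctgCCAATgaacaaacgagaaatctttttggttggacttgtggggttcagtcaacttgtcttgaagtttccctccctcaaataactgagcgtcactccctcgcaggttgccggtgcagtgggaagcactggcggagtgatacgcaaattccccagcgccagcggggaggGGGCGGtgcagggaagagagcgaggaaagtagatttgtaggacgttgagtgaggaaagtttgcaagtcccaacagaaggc
The windows of *Col4a1* and *Col4a2* run in opposite directions and share 78 bases, and their annotated starts lie 21 bases apart. The window of *Col4a2* holds 1 CCAAT box and 3 GC boxes, and those of *Col4a1* and *Col4a5* hold 1 of each. These windows differ in composition, with 74.0% G and C at *Col4a1*, 73.7% at *Col4a2* and 52.7% at *Col4a5*. *Col4a6* starts 1343 bases from *Col4a5* on the opposite strand and was detected on no array. The table held 33 windows for 30 of the 37 collagen genes. A CCAAT box was found in 12 of these (36.4%) and in 37.4% of all 32851 windows, and a GC box in 20 (60.6%) and in 35.7% of all. The letters of the estrogen response element, GGTCANNNTGACC, were in none of the 33 collagen windows and in 0.07% of all windows. A match or its absence describes these letters in this window only.

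FACIT collagens were mostly at background. Of their 8 probes a single one was tested, for *Col16a1*, whose product associates with fibrils and microfibrils of connective tissue. It was steady, with 11.71 ± 0.03 (SD, n = 3) on the labelled knockout arrays and 11.67 ± 0.06 (SD, n = 3) on the wildtype arrays. Its log2 fold change was 0.04 (standard error 0.10, adjusted p = 0.77). *Col14a1* was detected on 1 array of each group and was not tested, and *Col19a1* and the type IX chains were detected on no array. No probe was matched to *Col12a1*, *Col20a1*, *Col21a1* or *Col22a1*, which are not analysed here.

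Type VI collagen, the beaded filament around cells, was measured through *Col6a1* and *Col6a2*. Of 4 tested probes 1 was called higher, beside 8.86% of all tested probes. Probe ILMN_1259388 of *Col6a1* (chromosome 10) read 12.98, 12.85 and 12.90 on the labelled knockout arrays and 12.30, 12.09 and 12.33 on the wildtype arrays. The groups were tight and apart, and the labelled knockout mean was higher by 0.67 log2 (standard error 0.11, adjusted p = 0.0097). The call was lost without shared-heading array B (adjusted p = 0.056) and under median scaling, where it was 0.42 (adjusted p = 0.25) and the median of all tested probes moved from -0.02 to -0.17. Probe ILMN_2768087 of the same gene read 12.88, 12.75 and 12.93 against 12.74, 13.01 and 12.45. Those groups overlapped, and the log2 fold change was 0.12 (standard error 0.16, adjusted p = 0.61). The change of the gap between these probes was 0.55 log2 (exact two-sided permutation p = 0.1, 0.2 after adjustment over the 8 pairs), and the probes of *Col6a1* do not share a call. *Col6a2* read 10.18, 9.96 and 9.94 against 10.22, 11.13 and 9.37, with a log2 fold change of -0.21 (standard error 0.41), and turned to 0.23 without wildtype replicate 2. *Col6a6* was detected on no array, and *Col6a3*, *Col6a4* and *Col6a5* had no matched probe.

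Dim probes of *Col3a1* and *Col6a1* behaved unlike the bright probes of the same genes, and both were singled out after their values were seen. ILMN_2683958 of *Col3a1* read 9.69, 9.55 and 9.72 on the labelled knockout arrays and 6.86, 4.80 and 9.42 on the wildtype arrays. ILMN_2589422 of *Col6a1* read 8.54, 8.20 and 8.52 against 6.52, 4.51 and 7.94. In both, wildtype replicate 2 was at background, replicate 1 in between and replicate 3 close to the labelled knockout arrays. The log2 fold changes were 2.62 (standard error 1.04, adjusted p = 0.13) and 2.09 (standard error 0.78, adjusted p = 0.11) and did not pass. Without wildtype replicate 3 both passed, at 3.83 and 2.91, and without wildtype replicate 2 they stood at 1.499 (adjusted p = 0.14) and 1.17 (adjusted p = 0.062). The brighter probes varied by no more than 0.28 (SD) among the wildtype arrays, against 2.31 and 1.72 for these dim probes.

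**Figure D3:**
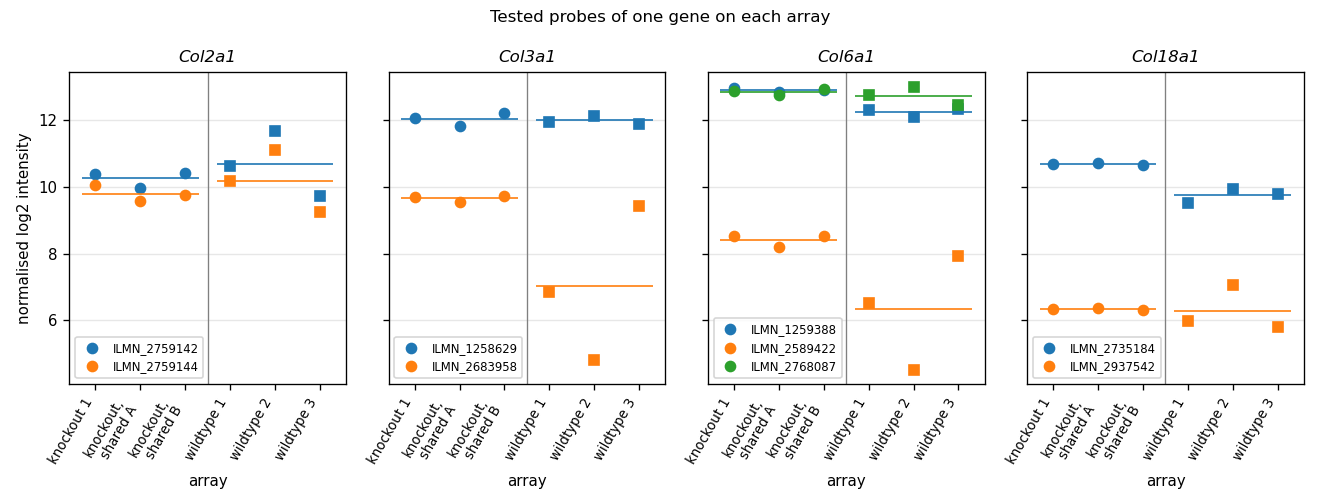
Normalised log2 intensity (vertical axis) of the tested probes of *Col2a1*, *Col3a1*, *Col6a1* and *Col18a1* on each of the 6 arrays (horizontal axis), with circles for labelled knockout, squares for labelled wildtype and lines at the group means. The probes of *Col2a1* move in parallel, while ILMN_2683958 of *Col3a1* and ILMN_2589422 of *Col6a1* drop to 4.80 and 4.51 on wildtype replicate 2 and the other probes of these genes do not.

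The remaining collagens are minor types, and 3 of their 7 tested probes were called higher, beside 8.86% of all tested probes. *Col18a1* encodes the multiplexin chain of vessel and epithelial basement membranes, whose end fragment is known as endostatin. Its brighter probe (ILMN_2735184, chromosome 10) read 10.68, 10.72 and 10.65 on the labelled knockout arrays and 9.53, 9.93 and 9.79 on the wildtype arrays. The groups lay apart, with a 1.92-fold higher level (log2 fold change 0.94, standard error 0.13, adjusted p = 0.0046), but under median scaling the call was lost (0.72, adjusted p = 0.089). The dimmer probe (ILMN_2937542) read 6.32, 6.38 and 6.31 against 5.98, 7.07 and 5.79, which overlap (log2 fold change 0.06, standard error 0.32). Of 18 alternative settings it passed in 1, without wildtype replicate 2 (0.43, adjusted p = 0.034 from limma), and changed sign in 3. The other probe of *Col18a1* was detected on no array. *Col15a1*, the other multiplexin, had a log2 fold change of -0.35 (standard error 0.33) and did not pass.

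*Col23a1* encodes a membrane-spanning collagen. Its probe (ILMN_2650447, chromosome 11) read 7.09, 7.13 and 7.11 on the labelled knockout arrays and 5.83, 6.20 and 5.88 on the wildtype arrays. These groups did not overlap, and the log2 fold change was 1.14 (standard error 0.13, adjusted p = 0.0021), a 2.21-fold difference. The other membrane-spanning types, *Col13a1*, *Col17a1* and *Col25a1*, were measured by 9 probes and detected on no array. *Col26a1* encodes type XXVI collagen, a short chain first known from reproductive tissue. It read 6.01, 6.31 and 6.07 on the labelled knockout arrays (ILMN_1247358, chromosome 5). On the wildtype arrays it read 4.49, 4.59 and 4.89 and was detected on none, so it was at least 1.60-fold higher (adjusted p = 0.0016). In the authors' table, which has no background correction, the log2 fold change of *Col23a1* was smaller, 0.65, and still past the threshold. The fitted values of *Col11a1* and *Col26a1* also passed there, but both probes entered the test through the labelled knockout arrays alone and have no measured wildtype level.

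*Col7a1*, the anchoring fibril that fastens epidermis to dermis, and *Col8a2*, a chain of the hexagonal networks of cornea and vessels, were lower on average but were not called. The log2 fold change was -0.66 for *Col7a1* (standard error 0.35, adjusted p = 0.22) and -1.11 for *Col8a2* (standard error 0.50, adjusted p = 0.17). Of the settings tried, both passed only without wildtype replicate 3. *Col8a2* was detected on all 3 wildtype arrays and on 1 labelled knockout array. *Col28a1* was detected on no array, and no probe was matched to *Col8a1*.

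A shared order among the wildtype arrays ran through many collagens. The measure, chosen after the values were seen, was the height of wildtype replicate 2 above the mean of replicates 1 and 3. It exceeded 0.5 log2 at 9 of the 26 collagen probes (34.6%) and at 12.6% of all tested probes. These were both probes of *Col2a1*, the probes of *Col4a1*, *Col4a2*, *Col6a2*, *Col7a1*, *Col8a2* and *Col15a1*, and the dimmer probe of *Col18a1*. In each of the 9 wildtype replicate 2 was the highest, replicate 1 came next and replicate 3 was the lowest, an order that 1219 of the 1394 such probes in the whole table also had. The 3 labelled knockout arrays lay close together at the same 9 probes, with standard deviations of at most 0.26, against 0.37 to 1.09 among the wildtype arrays. The measure picks probes at which the wildtype arrays lie apart, so this wider wildtype spread follows in part from the choice. Over all 26 collagen probes the median standard deviation was 0.10 on the labelled knockout arrays and 0.30 on the wildtype arrays, and it was 0.12 and 0.20 over all tested probes. None of the 6 called probes was among these 9. A wide wildtype spread also raises the standard error in the fit, so this lack of overlap is partly built in. Whether cell makeup, RNA or hybridisation differed between these arrays was not tested.

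**Figure D4:**
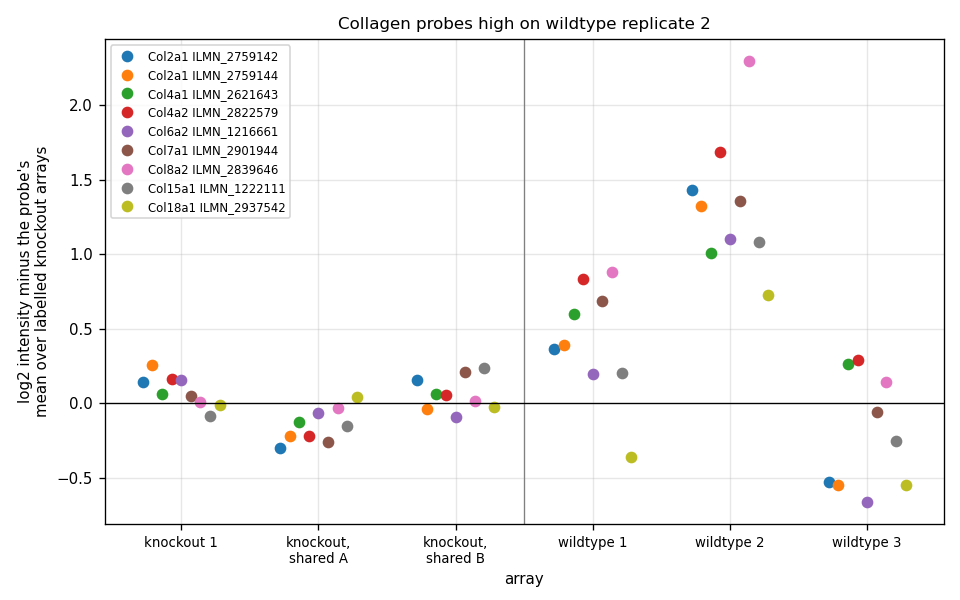
Log2 intensity minus the mean of the probe over the labelled knockout arrays (vertical axis) for the 9 collagen probes that were more than 0.5 log2 higher on wildtype replicate 2 than on the mean of replicates 1 and 3, on each array (horizontal axis). Each colour is a probe. Wildtype replicate 2 is the highest wildtype array and replicate 3 the lowest for each probe.

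Genes that handle collagen were described from lists, each gene by its brightest tested probe. Over all tested probes 8.86% were higher and 9.22% lower, with a median log2 fold change of -0.02. The counts in these short lists are given as description only. Of 17 tested genes for folding and export of the chains, 1 was higher, 2 were lower and 14 did not pass, with a median log2 fold change of -0.19. *Colgalt1*, which adds galactose to hydroxylysine, rose by 0.38 (adjusted p = 0.044). The lysyl hydroxylase *Plod2* fell by 0.63 (adjusted p = 0.033) and *P4ha1*, a catalytic subunit of prolyl 4-hydroxylase, by 0.55 (adjusted p = 0.038). Among 8 tested genes for procollagen processing and crosslinking, 2 were higher and none was lower. *Bmp1*, the procollagen C-proteinase, rose by 0.53 (adjusted p = 0.024) and *Tgm2*, a crosslinking transglutaminase, by 1.46 (adjusted p = 0.00062). Of 6 tested collagen receptors and uptake genes, *Itga11*, an integrin subunit that binds fibrillar collagen, rose by 0.64 (adjusted p = 0.0067). The receptor tyrosine kinase *Ddr1*, which binds collagens including type IV, fell by 1.21 (adjusted p = 0.022).

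The 13 tested proteoglycans and fibril organizers moved both ways, with 3 higher and 3 lower. Among the higher ones *Postn* was detected on 1 wildtype array and passed the filter through the labelled knockout arrays. With detection required on all 6 arrays 10 were tested, 2 higher and 2 lower. *Omd*, a keratan sulfate proteoglycan of bone, read 7.99, 8.28 and 8.28 on the labelled knockout arrays against 6.63, 6.85 and 6.89 (log2 fold change 1.40, adjusted p = 0.0012). *Ogn* rose by 0.98 (adjusted p = 0.0036), while *Prelp* fell by 0.56 (adjusted p = 0.011). *Tnxb*, which encodes tenascin-X, was detected on no labelled knockout array and was at least 1.52-fold higher on the wildtype arrays (adjusted p = 0.026). It passed the filter through the wildtype arrays alone, so this p-value rests on labelled knockout values below detection. Of 5 tested collagenases and gelatinases 2 were higher, *Mmp13* as above and the membrane-bound *Mmp14*, by 0.59 (adjusted p = 0.024). Over these pathway lists 9 of 49 tested genes were called higher (18.4%, beside 8.86% of all tested probes) and 6 lower (12.2%, beside 9.22%), and the lower share lies close to that of all probes. The calls rested on few arrays: the lower count was 0 without shared-heading array A or B or without wildtype replicate 1, 1 without knockout replicate 1 and 10 without wildtype replicate 3.

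**Figure D5:**
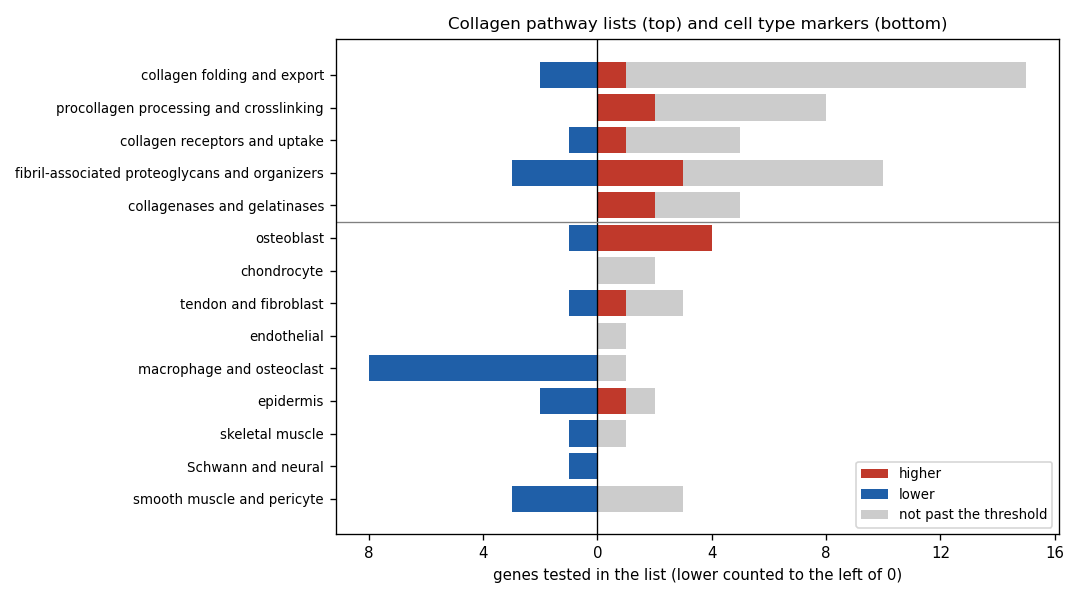
Number of tested genes (horizontal axis) in each collagen pathway list and marker list that were higher on the labelled knockout arrays (red, right of 0), lower (blue, left of 0) or not past the threshold (grey). Of the macrophage and osteoclast markers 8 of 9 were lower, beside 9.22% of all tested probes. With detection required on all 6 arrays, which is not drawn, 3 of 4 were lower.

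Markers of several cell types differed between the groups, in a table where 8.86% of all tested probes were higher and 9.22% were lower. Of 15 macrophage and osteoclast markers measured, 9 were tested, 8 of these were lower on the labelled knockout arrays and none was higher. *Adgre1* and *Fcer1g* were detected on 2 labelled knockout arrays, *Cd53* and *Ctss* on 1 and *Tyrobp* on none, so these passed the filter through the wildtype arrays. The fold of *Tyrobp* is therefore a lower bound, at least 2.08-fold higher on the wildtype arrays. With detection required on all 6 arrays 4 were tested and 3 of them were lower. The summed linear level of the 9 tested markers ran from 6120 to 6524 on the labelled knockout arrays and from 8500 to 9800 on the wildtype arrays. The brightest part of that sum was *Ctsk*, the osteoclast protease cathepsin K and the tested member that did not pass (0.12, adjusted p = 0.40). Without it the sums ran from 1636 to 1753 against 4203 to 5534. *Cd14* fell by 1.84 (adjusted p = 0.00082), *Adgre1* fell by 2.01, *Cd53* fell by 1.65 and *Ctss* fell by 1.56, while *Ptprc*, *Itgam*, *Acp5*, *Dcstamp* and *Ocstamp* were detected on no array. Of 5 tested osteoblast markers 4 were higher and 1 was lower, with summed levels from 1489 to 1594 against 1407 to 1609, and from 815 to 849 against 253 to 393 without *Sp7*. *Ibsp* was detected on no wildtype array and passed the filter through the labelled knockout arrays alone. It was at least 3.10-fold higher, and its adjusted p of 0.00048 from limma rests on wildtype values below detection. With detection required on all 6 arrays 4 osteoblast markers were tested, 3 higher and 1 lower. *Bglap* and *Bglap2* rose by 1.43 and 1.48, and *Sp7* fell by 0.80 (adjusted p = 0.0073). Of 6 tested smooth muscle and pericyte markers 3 were lower, led by *Tagln* at -0.99 and *Myh11* at -1.39, with sums from 22885 to 25029 against 23920 to 27412. The brightest part of that sum was *Acta2*, and without it the sums ran from 1017 to 1222 against 1823 to 3090. The others did not pass, with log2 fold changes of -0.01 for *Acta2*, -1.29 for *Pdgfrb* and 0.95 for *Mcam*. Of 8 endothelial markers measured only *Esam* was tested, and *Pecam1*, *Cdh5*, *Tie1*, *Emcn* and *Vwf* were detected on no array. Of 4 tested tendon and fibroblast markers, which mark cells that make collagen, *Scx* fell by 1.67 (adjusted p = 0.00085) and *Dpt* rose by 0.82 (adjusted p = 0.013). *Mbp*, the only Schwann cell marker tested, fell by 1.03 (adjusted p = 0.013), and *Cdh19* was detected on no array. Of 2 tested skeletal muscle markers *Acta1* fell by 0.55 (adjusted p = 0.021) and *Des* did not pass (-0.33, adjusted p = 0.21). *Myod1*, *Myog*, *Ckm*, *Tnnt3* and *Actn2* were detected on no array. Epidermal markers were tested for 4 genes, with *Lor* and *Sfn* lower. *Trp63* was called higher, but it was detected on no wildtype array and its lower bound was only 1.02-fold. *Krt5*, *Krt14*, *Krt1* and *Cdh1* were detected on no array. The part of these cell types in the collagen differences was not tested.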

How the data were processed

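Total RNA of 6 samples was hybridised to MouseRef-8 beadchips. Per the file headers the scanner table pairs each BeadStudio signal intensity with a detection p-value, which the authors deposited without normalization. The authors also deposited a table of log2 values, quantile normalized with lumi (version not given in the sources used here). Probes were linked between the tables by their ranks on the 4 arrays named in both, all 25697 one to one. Symbols came from the platform's annotation, updated through RefSeq, and the annotation names no genome build, so no probe coordinates are given.

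The neqc function of limma 3.58.1 under R 4.3.3 corrected the background of the scanner signals and quantile normalized them (offset 16, negative controls inferred from detection p-values). Probes detected (detection p under 0.01) on 3 or more arrays were tested with lmFit and eBayes, 3 arrays against 3, with Benjamini-Hochberg adjustment over all of them and a threshold of 0.05. Exact permutation tests used scipy 1.17.1. The fit was tested on simulated data. For a probe undetected throughout a group, the bound took for each of its arrays the higher of its own value and the lowest value among detected probes.

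Values were given on every array for each called collagen probe and for the brightest tested probe of each chain of types I to VI and XI. At most 4 called genes were named from each list, beyond those named only for how they passed the filter. Members and lists were chosen with earlier results of these data known. Between 40.2% and 43.6% of probes were detected on each array, and the number of arrays limits the precision. The sources do not say whether cultures or mice were separate, so p-values measure the spread between arrays. Alternatives covered background correction, normalization, the authors' table, the filter, the variance model, array weights, a replicate block and leaving out each array. Those of the pathway lists were chosen after seeing the data. Correlations of same-numbered deviations from the group means were 0.11, -0.06 and -0.05. The deviations within a group depend on one another, so these values cannot show whether replicate numbers pair the arrays.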

Additional observations from a re-analysis of the deposited data

How the results depend on the processing

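The 6 called collagen probes kept their direction under every alternative, and 103 of their 106 values also stayed past the threshold. The exceptions were *Col6a1* ILMN_1259388 under median scaling and without shared-heading array B, and *Col18a1* ILMN_2735184 under median scaling. The collagen probes called higher were 5, but 3 with detection on all 6 arrays, where fewer probes were tested, 8 with array weights, and 4 to 7 with an array left out. The collagen probes called lower were 1, but 2 under median scaling and with trend and robust variance, 3 with array weights, and 1 to 5 with an array left out, with 5 without wildtype replicate 3. Over all tested probes 982 were higher and 1022 lower, but 521 and 572 under median scaling, and 399 to 1662 and 343 to 1825 with an array left out. The collagen pathway genes called higher were 9, but 3 under median scaling and 5 to 11 with an array left out. Those called lower were 6, but 3 under median scaling and 0 to 10 with an array left out.

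No paired analysis was used as a main result, since the sources do not say that replicate numbers pair the arrays. With a replicate block in the authors' table, 6 collagen probes were higher and 1 lower, 3 pathway genes were lower, and 613 of all tested probes were lower.

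Of 356 values of the 20 collagen probes that were not called, 22 passed the threshold under an alternative and 19 changed sign, all of these at sizes that did not pass. Under median scaling, which moved the median of all tested probes to -0.17, the log2 fold changes turned to -0.16 for *Col16a1*, -0.20 for *Col3a1* ILMN_1258629, -0.10 for *Col5a1*, -0.11 for *Col6a1* ILMN_2768087 and -0.031 for *Col18a1* ILMN_2937542. Cyclic loess turned the probes of *Col24a1* to 0.031 (ILMN_1231275) and 0.026 (ILMN_2857666), and array weights turned the latter to 0.050. With an array left out, the values ran from -0.23 to 0.057 for *Col24a1* ILMN_2857666, from -0.89 to 0.084 and from -0.86 to 0.078 for the probes of *Col2a1*, from -0.050 to 0.14 for *Col3a1* ILMN_1258629, from -0.021 to 0.25 for *Col6a1* ILMN_2768087, from -0.65 to 0.23 for *Col6a2*, from -0.65 to 0.022 for *Col15a1* and from -0.19 to 0.43 for *Col18a1* ILMN_2937542. The cause was not tested. With 3 arrays a group, a change of a dim probe under about its own spread could not be told from none.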

Other observations

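The step seen at the dim probes of *Col3a1* and *Col6a1* was looked for over the whole table, by a rule written after their values were seen. It asked that wildtype replicate 2 lie more than 1 log2 below replicate 1, replicate 1 more than 1 log2 below replicate 3, and each labelled knockout array more than 1 log2 above wildtype replicate 1. 56 of the 11089 tested probes met it (0.505%), for 51 named genes, with a median log2 fold change of 1.86, and 5 of the 56 passed the threshold. Of these genes 42 had 80 other tested probes, which had a median log2 fold change of 0.23, and 45 of the 80 lay within 0.5 log2 of no change. The rule places the labelled knockout arrays above wildtype replicates 1 and 2, so it forces a high fold change at the 56 probes. Their median is therefore not compared with that of the other probes. What sets the 56 probes apart was not tested.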
